A study of Arabidopsis thaliana with 4 samples.

Results

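A set of 97 probe sets was at least 2-fold brighter in untreated plants of the Arabidopsis thaliana ku80 mutant than in untreated wild type, and at least 2-fold dimmer in ku80 given bleomycin than in ku80 without it. They were chosen on those values, out of 22746 probe sets that were not array controls. Intensities below a floor of 28 were first set to 28, and log2 was taken. The 2 thresholds were a difference of at least 1 for ku80 minus wild type and of -1 or lower for ku80 with bleomycin minus ku80. Both differences therefore describe how the members were found and carry no test. The array of wild type with bleomycin played no part in the choice.

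The study used ATH1 arrays, which read each transcript with a set of short probes, on RNA from whole plants at growth stage 1.06. All plants were of ecotype ws-2. The 4 groups had 1 array each: wild type, wild type with bleomycin, the line ku80 with a T-DNA insert in AT1G48050, and ku80 with bleomycin. Bleomycin was supplied at 1 mg per litre for 3 days, and 20 plants were pooled. A pool gives no spread between plants, the mutant was 1 insertion line, and every difference below is a value without a replicate check.

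Ku80 and Ku70 form a ring that binds broken DNA ends and starts repair by non-homologous end joining, and bleomycin breaks DNA strands. Plants answer microbes, wounding and reactive oxygen with secreted proteins such as defensins and chitinases, and with peroxidases that act in the cell wall. Jasmonate and ethylene together control defensin genes of the PDF1.2 type, which makes them common markers of that branch of defence.

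Of the 97 members, 59 were paired with 1 gene in the platform table, 2 with several genes and 36 with none. No probe set was paired with AT1G48050, and its transcript therefore gave no check of the labels. Among organ markers, the leaf gene RCA stood at 1926.4 in wild type and 1947.5 with bleomycin, and at 2670.5 and 1758.0 in ku80. It ran in the members' direction by under 2-fold, with log2 differences of 0.47 and -0.60 in the rule's comparisons. The root gene PYK10 lay between 1822.9 and 2430.6. The other measured leaf marker, SBPASE, was lower with bleomycin, at 1088.7 and 514.7 in wild type and at 895.7 and 488.5 in ku80. The root hair gene EXPA7 was above the floor on 1 array only, and no flower or seed marker was paired with a probe set. Fewer cells of a type and less RNA per cell cannot be told apart in whole plants. Average background was 95.78 on the ku80 array and 105.06 to 107.28 on the other 3. The bacterial spike-in controls ran in the members' direction in smaller steps. Over 14 spike-in probe sets above the floor on every array, ku80 was 1.73-fold brighter than wild type and 1.22-fold brighter than ku80 with bleomycin, and wild type with bleomycin was 1.68-fold brighter than wild type. None of the 14 met the members' thresholds. When each array was divided by its spike-in level, 47 of the 97 members still met both thresholds. The part of spike-in level and background in the members' values was not tested.

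The members' median intensity was highest in untreated ku80, which the rule favours. The median intensity over the 97 was 32.0 in wild type, 66.1 in wild type with bleomycin, 200.2 in ku80 and 54.1 in ku80 with bleomycin. Over all probe sets, controls included, it was 45.7, 40.0, 44.1 and 43.2 in the same order. The members' median was thus below that of the array in untreated wild type and above it on both bleomycin arrays. In untreated ku80 the members ranged from 57.2 to 2982.2. At or below the floor were 44 members in wild type, 13 in wild type with bleomycin and 16 in ku80 with bleomycin, and 47 lay above the floor on all 4 arrays. Of all probe sets without controls, 60.6%, 59.2% and 60.1% were above the floor on those 3 arrays. Where the lower value of a pair was under the floor, the fold was computed against 28 and is printed as "at least".

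By the rule all 97 exceeded wild type at least 2-fold in ku80, against 2.45% of the 15350 probe sets above the floor on at least 1 array. All were likewise at least 2-fold lower in ku80 with bleomycin, against 5.22%. The median member differed by 1.80 on the log2 scale between ku80 and wild type and by -1.44 between ku80 with and without the drug. The members made up 25.8% of the 376 probe sets that met the first threshold and 12.1% of the 801 that met the second. The opposite pattern, low in untreated ku80 and higher with the drug, was met by 52 probe sets. Just inside the first threshold were rpl14 at 1.01, AT5G13200 at 1.02 and 1 unnamed probe set at 1.02, and the nearest outside were AT2G43610, a chitinase family gene, at 0.95 and 2 unnamed probe sets at 0.97. Just inside the second were AT1G26390 at -1.03 and 2 unnamed probe sets at -1.02 and -1.01, and the nearest outside were AT4G18950 at -0.95 and 2 unnamed probe sets at -0.96 and -0.97.

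The array left out of the choice divided the members. In wild type, 29 of the 97 (29.9%) were at least 2-fold higher with bleomycin, against 4.78% of all measured probe sets, and 1 (1.0%) was at least 2-fold lower, against 9.28%. The median of the members was 0.46 and that of all measured probe sets -0.04. The untreated wild type array serves both in this difference and in the choice of members, so a low value there raises both. The description as high only in untreated ku80 fitted some members and not others. Of the 68 members counted as less than 2-fold higher with the drug in wild type, 30 were at or below the floor in untreated wild type, and 19 of those were above it with bleomycin, so that their difference is a lower bound. Among the named genes 17 were at least 2-fold higher with the drug in wild type as deposited. With spike-in scaling 9 of them came under 2-fold, at log2 differences of 0.27 to 0.94: AT1G02360, AT4G01700, AT5G55450, AT3G13610, AT5G64100, AT4G08780, GH3.3, AT2G44370 and AT3G46280. With a floor of 56, 7 came under 2-fold: AT1G02360, AT4G01700, AT1G26390, AT5G66985, AT2G44370, AT5G40590 and AT3G46280. Untreated ku80 was also at least 2-fold above wild type with bleomycin in 68 members, where the share of all measured probe sets was 5.56%. Members were chosen for a high ku80 value, which fills this count by itself, and nothing is read from it. In 47 of these 68, both bleomycin arrays stayed within 2-fold of untreated wild type. Most measured probe sets were within 2-fold in each of those comparisons, and pairs of values at the floor are so by construction. In 92 members the ku80 array was the brightest of the 4, and in 5 it was wild type with bleomycin. The rule already placed ku80 above untreated wild type and above ku80 with bleomycin. Nothing is read from these counts either.

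**Figure D1:**
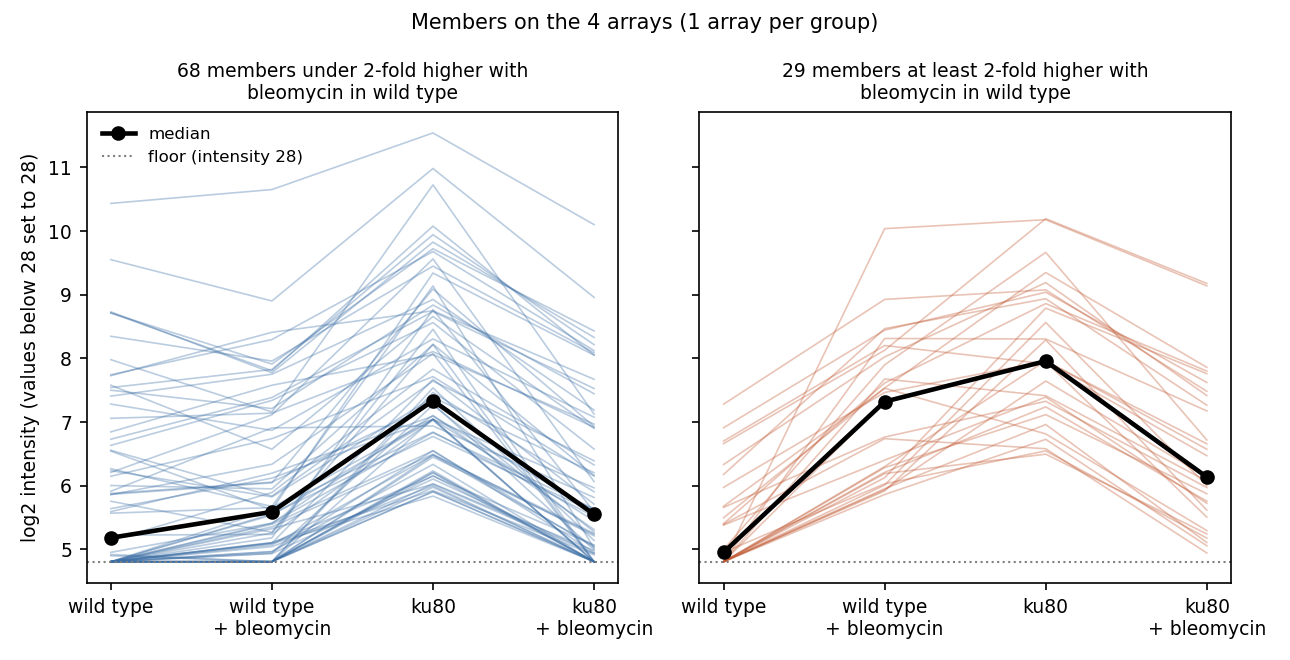
Log2 intensity of each member (thin lines) and the median (black) on the 4 arrays, with values below 28 drawn at the floor. The left panel holds the 68 members less than 2-fold higher with bleomycin in wild type and the right panel the 29 that were at least 2-fold higher. The high values at ku80 are set by how the members were chosen, while wild type with bleomycin was not used for it.

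The remaining probe sets that met the first threshold differed from the members on this array. Among those 279, which did not meet the second threshold, 177 (63.4%) had an at least 2-fold higher value with bleomycin in wild type, and their median log2 difference was 1.29. Both sets share the wild type array and the first threshold, and they were parted by ku80 with bleomycin. The members' share was the lower one under each of the 8 alternative settings run, at 14.9% to 35.9% against 47.3% to 73.6%. With 1 array per group this difference could not be tested.

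**Figure D2:**
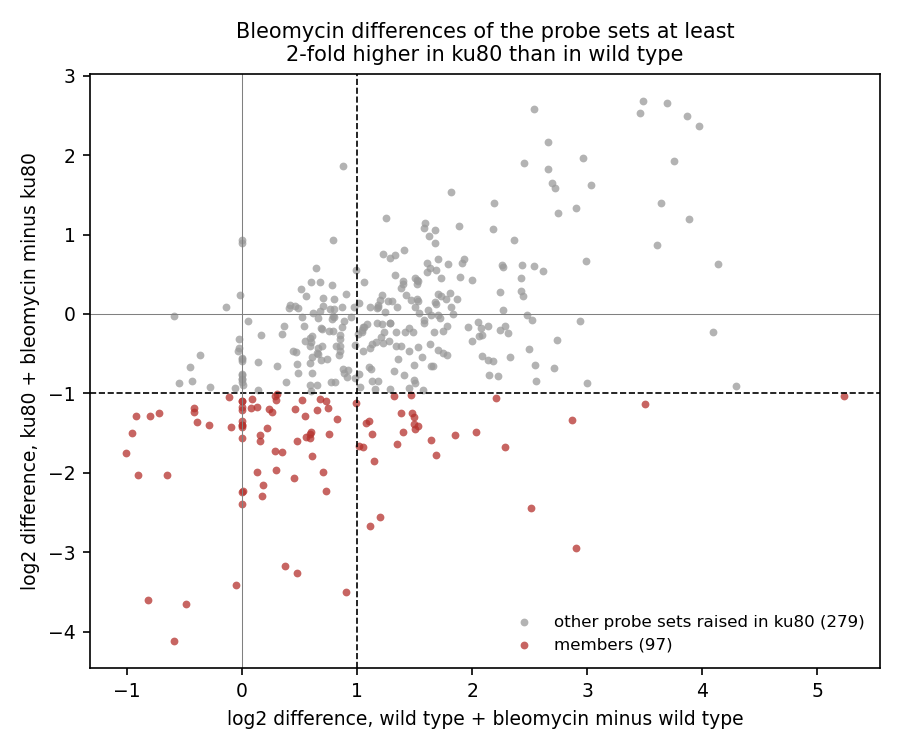
Log2 difference with bleomycin in wild type (horizontal) and in ku80 (vertical) for the 376 probe sets with ku80 at least 2-fold above wild type. Dashed lines mark 1 and -1. The 97 members (red) lie at or below -1 by the rule, with 29 of them at or right of 1, while 177 of the other 279 (grey) lie at or right of 1.

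Under bleomycin, most members in the mutant lay within 2-fold of either wild type array, as did a larger share of all measured probe sets. A member at or below the floor on both arrays of a pair counts as within 2-fold by construction. Against untreated wild type, ku80 with bleomycin was within 2-fold at 75 members, at least 2-fold higher at 19 (19.6%, against 5.26% of all measured) and at least 2-fold lower at 3 (3.1%, against 8.83%). Against wild type with bleomycin it was within 2-fold at 79, at least 2-fold higher at 4 (4.1%, against 2.61%) and at least 2-fold lower at 14 (14.4%, against 1.95%). A low value of ku80 with bleomycin was itself a condition of membership. The median of the last difference was -0.11 on the log2 scale.

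Defensins, small secreted antimicrobial peptides, included some of the widest differences among the named members. Below, a pair of values for a genotype gives the intensity without and then with bleomycin. PDF1.2 stood at 74.0 and 138.6 on the wild type arrays and at 756.8 and 67.0 on the mutant arrays. It was thus 10.2-fold higher in ku80 than in untreated wild type, and 11.3-fold lower in ku80 with the drug, close to untreated wild type. PDF1.2b stood at 252.6 and 143.0 on the wild type arrays and at 1694.4 and 139.8 on the mutant arrays. The treated arrays of both genotypes were close to each other, and ku80 was 6.71-fold above untreated wild type. The level of PDF1.2b is uncertain apart from that of PDF1.2, since its probe set is of a type shared among similar transcripts. PDF1.4, another defensin gene, stood at 35.3 and 59.5 on the wild type arrays and at 228.1 and 80.3 on the mutant arrays. None of the 3 was 2-fold higher with bleomycin in wild type as deposited. The log2 difference of PDF1.2 was 0.91, just under 2-fold, and quantile normalization put it at 1.08, over 2-fold. Under that scaling PDF1.4 was at 0.94 and PDF1.2b at -0.74.

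Of the jasmonate and ethylene list, 4 of 23 genes were measured. At least 2-fold higher in untreated ku80 were 3 of them, against 2.45% of all measured probe sets. Besides both PDF1.2 genes this was JRG21, a jasmonate-regulated oxygenase gene, which was below 28 on both wild type arrays and stood at 135.7 and 252.0 on the mutant arrays, so it was higher and not lower with the drug. THI2.1, a thionin gene, was below 28 under bleomycin in both genotypes and stood at 68.4 in untreated wild type and 41.4 in untreated ku80.

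Chitinases cleave chitin of fungal cell walls. AT2G43620 stood at 32.0 and 238.8 on the wild type arrays and at 812.6 and 105.4 on the mutant arrays. It was 25.4-fold higher in untreated ku80, 7.46-fold higher with the drug in wild type and 7.71-fold lower with it in ku80. AT2G43590, 3 protein-coding genes away, stood at 58.1 and 80.9 on the wild type arrays and at 269.8 in ku80, and was below 28 in ku80 with bleomycin, at least 9.64-fold lower. In wild type it stayed within 2-fold, unlike AT2G43620. The pattern that these near neighbours shared in ku80 was the condition of membership. AT1G02360 was below 28 in wild type, at 58.2 with the drug, and at 106.1 and 33.3 on the mutant arrays. AT4G01700 stood at 41.7 and 84.6 on the wild type arrays and at 168.1 and 52.9 on the mutant arrays. In wild type the log2 difference with bleomycin was at least 1.06 for AT1G02360 and 1.02 for AT4G01700, just over 2-fold. With spike-in scaling it was 0.50 and 0.27, and with a floor of 56 it was 0.06 and 0.60, all under 2-fold. Of 9 listed chitinase genes 4 were measured, 3 of them at least 2-fold higher in untreated ku80 and 3 at least 2-fold lower with the drug there. Of all measured probe sets, 2.45% and 5.22% were so. CHI (AT2G43570), not a member, stood at 365.1 and 234.7 on the mutant arrays, and AT2G43610 missed the first threshold.

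Further secreted or defence-linked members followed. AT4G33720, of the family of PR-1-like proteins, stood at 45.2 and 185.5 on the wild type arrays and at 652.3 and 232.4 on the mutant arrays. It was 14.4-fold higher in untreated ku80 and 4.10-fold higher with bleomycin in wild type. AT5G55450, a lipid transfer protein family gene, was brightest in wild type with bleomycin, with 104.2 and 294.8 on the wild type arrays and 241.5 and 88.8 on the mutant arrays. AT4G28460, for the precursor of a secreted signalling peptide, was below 28 in wild type, at 42.1 with the drug, and at 93.6 and 32.8 on the mutant arrays. AT3G13610 (F6'H1), an enzyme needed to make the coumarin scopoletin, stood at 120.4 and 348.4 on the wild type arrays and at 526.5 and 197.1 on the mutant arrays. For AT3G13610 the treated arrays of both genotypes lay between the untreated ones.

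AT1G26390, a berberine bridge enzyme-like oxidase gene, was below 28 in wild type, at 69.9 with bleomycin, and at 442.8 and 217.0 on the mutant arrays. Its level in ku80 with bleomycin stayed above that of both wild type arrays. Of 11 measured genes of that oxidase family, 8 were at least 2-fold higher in untreated ku80, against 2.45% of all measured probe sets. With bleomycin in ku80 2 were at least 2-fold lower, against 5.22%, and of those AT1G26390 was the member. In wild type 5 of the 11 were at least 2-fold higher with the drug, against 4.78%.

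Class III peroxidases are secreted haem enzymes that make or use hydrogen peroxide and can cross-link wall polymers. There were 7 among the members with 1 gene. AT5G64120 (PRX71) stood at 186.5 and 227.0 on the wild type arrays and at 985.1 and 297.6 on the mutant arrays, which left 3 arrays near each other and untreated ku80 apart. AT5G64100, 2 protein-coding genes away, stood at 155.6 and 486.8 on the wild type arrays and at 540.1 and 179.0 on the mutant arrays. Here wild type with bleomycin was close to untreated ku80. The adjacent genes Prx37 (AT4G08770) and AT4G08780 lay on different sides of 2-fold in wild type. Prx37 was 1.47-fold higher with the drug in wild type, at 214.4 and 314.6, and stood at 819.7 and 278.8 on the mutant arrays. AT4G08780 was 2.81-fold higher, at 62.9 and 176.8, and stood at 248.7 and 101.1 on the mutant arrays. With spike-in scaling the log2 differences with the drug in wild type were -0.20 for Prx37, 0.74 for AT4G08780 and 0.90 for AT5G64100, so none of the 3 was over 2-fold and that of Prx37 changed sign. Related copies can share probe signal, so the separate levels of such neighbours are uncertain. AT1G14550 was below 28 on both wild type arrays and at 177.0 and 60.0 on the mutant arrays. AT5G19890 and AT3G03670, chosen after their values were seen, stood at 156.3 and 64.0 in untreated ku80. AT5G19890 was at 58.9 and 66.6 on the wild type arrays, within 2-fold, and AT3G03670 was below 28 in wild type and at 33.0 with the drug, which gives only a lower bound of 1.18-fold.

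Of 10 measured peroxidase genes on the fixed list, 6 were at least 2-fold higher in untreated ku80, against 2.45% of all measured probe sets. With the drug there 5, all members, were at least 2-fold lower, against 5.22%. The gene between these counts was AT5G39580, at 82.2 in wild type and at 260.6 and 143.4 on the mutant arrays. In wild type 2 of the 10 were at least 2-fold higher with bleomycin (against 4.78%) and 1 was at least 2-fold lower (against 9.28%).

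**Figure D3:**
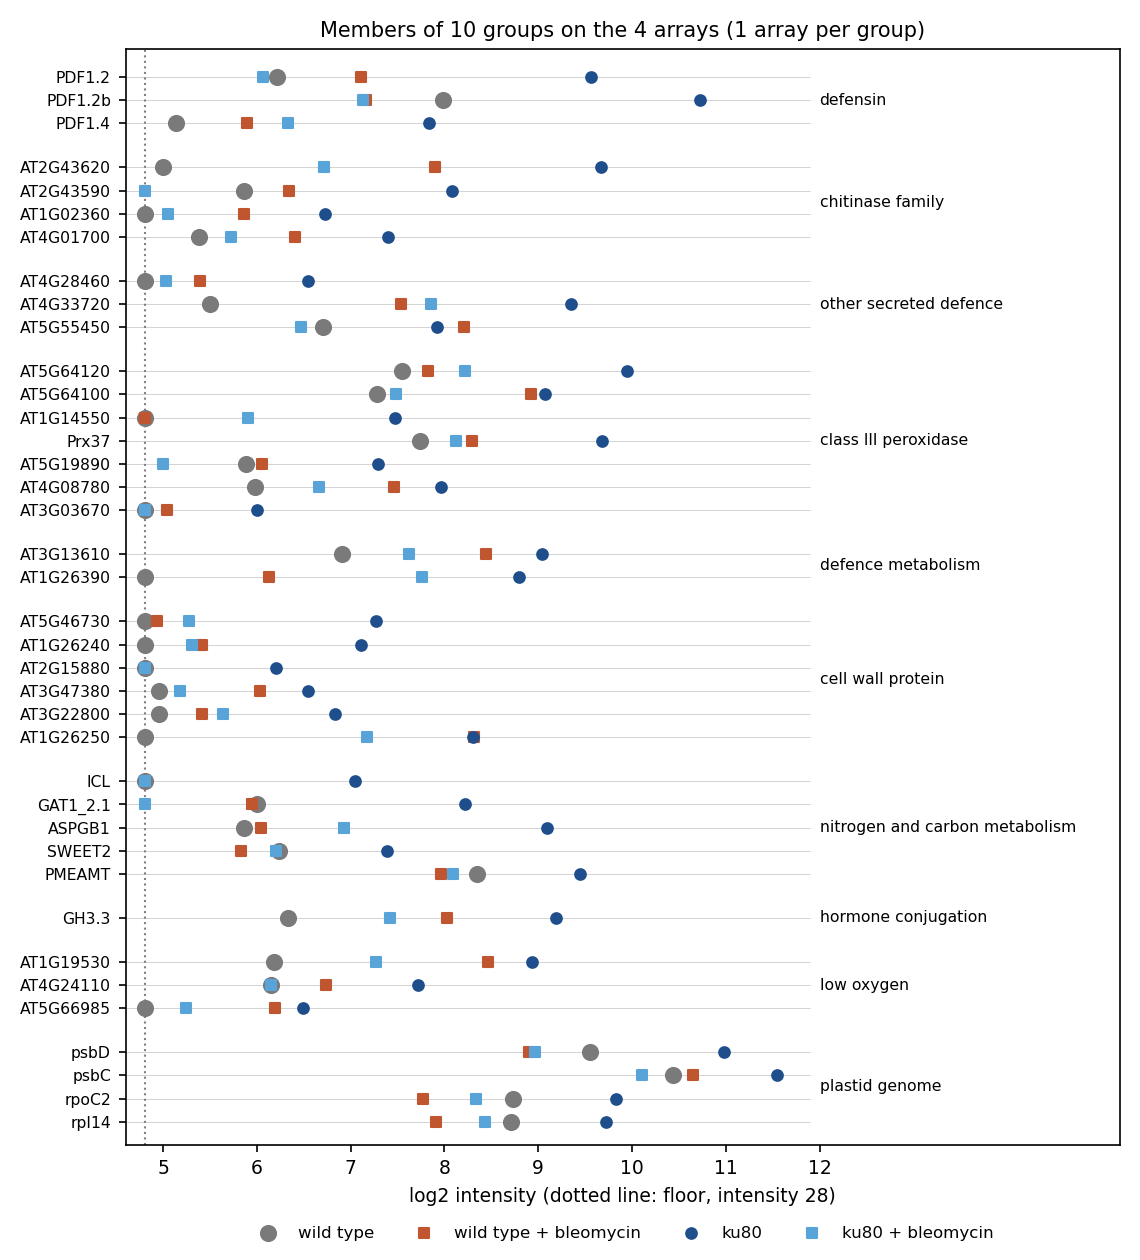
Log2 intensity of the members of 10 groups on the 4 arrays, 1 point per array, with values below 28 drawn at the floor (dotted). Untreated ku80 lies apart from the other 3 arrays for the defensins and the metabolic genes, while for AT1G26250, AT5G64100 and AT5G55450 wild type with bleomycin lies beside or beyond it. The rule placed untreated ku80 above untreated wild type and above ku80 with bleomycin for every member.

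Genes for wall proteins included an adjacent pair. AT1G26240 and AT1G26250 encode proline-rich extensin-like proteins, structural proteins of the wall. AT1G26250 was below 28 in wild type, at 318.2 with bleomycin, and at 316.3 and 144.6 on the mutant arrays, at least 11.4-fold higher with the drug in wild type. AT1G26240 was below 28 in wild type, at 42.6 with bleomycin, and at 137.7 and 39.7 on the mutant arrays. Its log2 difference with the drug in wild type was at least 0.61, and with a floor of 14 it was 1.61, so the side of 2-fold on which it lay depended on the floor. AT5G46730, a glycine-rich protein gene, was below 28 in wild type, at 30.7 with bleomycin, and at 154.1 and 38.8 on the mutant arrays. The next 3 genes were chosen after their values were seen. AT2G15880, for a leucine-rich repeat extensin, was at 73.7 in untreated ku80 and below 28 on the other 3 arrays. AT3G22800, of the same type, stood at 31.0 and 42.6 on the wild type arrays and at 114.1 and 49.8 on the mutant arrays. AT3G47380, for an invertase and pectin methylesterase inhibitor-like protein, stood at 31.0 and 65.4 on the wild type arrays and at 93.6 and 36.2 on the mutant arrays. Across these 6 genes the median log2 difference with bleomycin was -1.38 in ku80, where the rule set its sign, and 0.53 in wild type.

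The 5 members of nitrogen and carbon metabolism were at least 2-fold higher in untreated ku80 than on each of the other 3 arrays. The rule itself set the comparisons with untreated wild type and with ku80 with bleomycin. The one with treated wild type was met by 68 of the 97 members (70.1%, against 5.56% of all measured probe sets). Nothing is read from it for this group. For ASPGB1, ku80 with bleomycin was also at least 2-fold above untreated wild type. ASPGB1, an asparaginase that releases ammonium from asparagine, stood at 58.3 and 66.1 on the wild type arrays and at 545.2 and 122.2 on the mutant arrays. GAT1_2.1, a glutamine amidotransferase gene, stood at 64.2 and 61.9 on the wild type arrays and at 298.0 in ku80, and was below 28 in ku80 with bleomycin, at least 10.6-fold lower. ICL, the isocitrate lyase of the glyoxylate cycle that serves growth on stored lipid, was at 132.6 in untreated ku80 and below 28 on the other 3 arrays. For ASPGB1 and GAT1_2.1 wild type gave nearly the same level with and without the drug, and for ICL it gave no level above the floor. PMEAMT, a methyltransferase of phosphocholine synthesis, stood at 325.9 and 248.9 on the wild type arrays and at 699.3 and 272.4 on the mutant arrays. SWEET2, a vacuolar sugar transporter gene, stood at 75.5 and 56.7 on the wild type arrays and at 167.5 and 73.8 on the mutant arrays. With spike-in scaling the log2 difference between ku80 and wild type was 0.31 for PMEAMT and 0.36 for SWEET2, but 2.43 for ASPGB1. In wild type the 4 measured above the floor there lay between -0.41 and 0.18 on the log2 scale with bleomycin.

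GH3.3, which joins amino acids to the auxin indole-3-acetic acid, stood at 80.7 and 260.4 on the wild type arrays and at 584.4 and 171.0 on the mutant arrays. The drug went with a 3.23-fold higher value in wild type and a 3.42-fold lower one in ku80, so that the treated arrays lay between the untreated ones. With spike-in scaling the log2 difference in wild type was 0.94, under 2-fold, where it was 1.69 as deposited. GH3.3 was 1 of 4 measured genes of the auxin list of 13, and the other 3 (WES1, IAA29 and LBD16) were within 2-fold in both of the rule's comparisons. AT1G47400, for a small peptide of the IRONMAN family that acts in iron uptake, was below 28 in wild type, at 38.3 with bleomycin, and at 298.8 and 71.6 on the mutant arrays.

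Genes known to be induced by low oxygen were mostly high in untreated ku80 and mostly stayed within 2-fold of that level with the drug. Of 13 measured genes on that list of 28, 12 were at least 2-fold higher in untreated ku80, against 2.45% of all measured probe sets. With bleomycin in wild type 10 were at least 2-fold higher, against 4.78%. With bleomycin in ku80 3 were at least 2-fold lower, against 5.22%, and those 3 were the members. AT1G19530 stood at 72.4 and 354.2 on the wild type arrays and at 490.6 and 153.9 on the mutant arrays. AT4G24110 stood at 71.0 and 106.9 on the wild type arrays and at 210.0 and 71.2 on the mutant arrays. AT5G66985 was below 28 in wild type, at 73.1 with the drug, and at 90.3 and 37.9 on the mutant arrays. AT1G19530 and AT5G66985 were over 2-fold higher with the drug in wild type and AT4G24110 was not. With spike-in scaling the log2 difference of AT4G24110 between ku80 and wild type was 0.77, under the threshold, where it was 1.56 as deposited. The remaining genes of the list lay between -0.08 and -0.95 on the log2 scale in ku80 with bleomycin, AT4G27450 being nearest to the threshold at 1823.7 and 943.0.

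**Figure D4:**
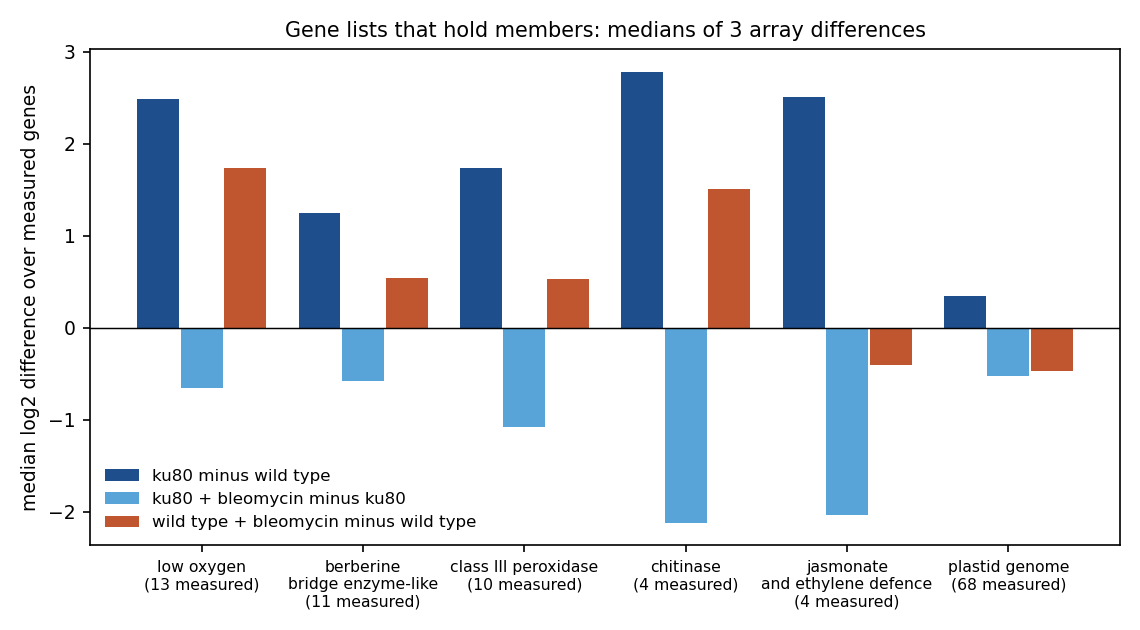
Median log2 difference over the measured genes of 6 lists, for ku80 against wild type and for bleomycin in each genotype, 1 array per group. Members are among the genes counted, so the bars for ku80 are partly set by how they were chosen. The low oxygen and chitinase lists have positive medians with bleomycin in wild type (1.74 and 1.51) and negative ones in ku80 (-0.66 and -2.12).

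Other lists held no member. WRKY53, a transcription factor of defence and senescence, stood at 233.9 and 35.6 on the mutant arrays but differed by 0.48 on the log2 scale between ku80 and wild type (167.9), and the other 2 measured WRKY factors were not members either. Of the salicylic acid list 2 of 17 genes were measured, SAG101 and GRX480, and both stayed within 2-fold in both of the rule's comparisons. None of the 5 measured oxidative stress and detoxification genes, the 3 measured senescence genes or the 2 measured DNA damage genes was a member. Of the DNA damage genes, ATLIG4, for the ligase of end joining, stood at 48.3 and 56.7 on the mutant arrays, and ATMND1, a recombination gene, was below 28 and at 66.8, so neither was lower with the drug. The camalexin and indole list had 1 measured gene, AT2G04400, at 373.9 and 466.7 on the mutant arrays.

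Several smaller groups were also present. AT2G44370, of a family of cysteine-rich and histidine-rich C1 domain proteins, was below 28 in wild type, at 62.0 with bleomycin, and at 124.7 and 34.5 on the mutant arrays. AT5G40590, of the same family, was below 28 in wild type, at 74.1 with bleomycin, and at 151.2 and 54.1 on the mutant arrays. Both were over 2-fold higher with the drug in wild type. AT2G27660, also of this family and chosen after its values were seen, was below 28 in wild type and at 34.1 with bleomycin. Its log2 difference there was at least 0.28, under 2-fold as counted. It stood at 57.2 in untreated ku80 and below 28 in ku80 with bleomycin. AT5G48430, an aspartyl protease family gene, was below 28 on both wild type arrays and at 185.8 and 35.3 on the mutant arrays. AT3G46280, a kinase-like gene, was below 28 in wild type, at 61.3 with bleomycin, and at 200.2 and 70.4 on the mutant arrays. AT4G39675 was below 28 in wild type, at 160.0 with bleomycin, and at 247.1 and 45.5 on the mutant arrays. Of these 3 genes, AT5G48430 alone gave no value above the floor in wild type with the drug. AT5G40490, for an RNA-binding protein, stood at 29.9 in wild type, below 28 with bleomycin, and at 89.4 and 33.3 on the mutant arrays. AT3G20340 stood at 30.3 in wild type, below 28 with bleomycin, and at 65.5 and 31.6 on the mutant arrays.

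The 4 members of the plastid genome were bright on every array. psbD, for a photosystem II core protein, stood at 750.6 and 478.9 on the wild type arrays and at 2024.8 and 498.1 on the mutant arrays. psbC, its neighbour and another photosystem II gene, chosen after its values were seen, stood at 1384.7 and 1610.0 on the wild type arrays and at 2982.2 and 1099.3 on the mutant arrays. For both, untreated ku80 was the highest array and ku80 with bleomycin was below untreated wild type. rpoC2, for a subunit of the plastid RNA polymerase, stood at 425.2 and 219.2 on the wild type arrays and at 908.2 and 322.0 on the mutant arrays. rpl14, for a ribosomal protein, stood at 420.1 and 240.9 on the wild type arrays and at 845.2 and 345.4 on the mutant arrays. With the drug in wild type the log2 difference was 0.22 for psbC, -0.65 for psbD, -0.80 for rpl14 and -0.96 for rpoC2. With spike-in scaling the difference between ku80 and wild type was 0.64 for psbD, 0.30 for rpoC2 and 0.21 for rpl14, under the threshold. Of 68 measured plastid probe sets 53 were higher in untreated ku80 and 62 were lower with bleomycin in ku80, with median log2 differences of 0.34 and -0.53. These were 77.9% and 91.2% of the plastid probe sets, beside 43.3% and 44.4% of all measured probe sets, whose medians were -0.01 and 0.01. Pairs equal at the floor counted as neither higher nor lower, which lowers the shares over all measured probe sets. The plastid counts and medians are as deposited, without spike-in scaling, and the spike-in controls were 1.73-fold brighter in ku80 than in wild type. In wild type 54 of the 68 (79.4%, beside 52.8% of all measured) were lower with the drug, with a median of -0.47 (-0.04 over all measured). The cDNA was primed with oligo-dT, and most plastid transcripts lack long poly(A) tails; its part in these values was not tested.

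The 38 members without a single gene held some of the widest differences. Of these, 9 had an at least 2-fold higher value with bleomycin in wild type, and so did 20 of the 59 with 1 gene. The share of all measured probe sets was 4.78%. The difference between the counts of 9 and 20 was not tested, and nothing is read from it. The probe sets described here were chosen after their values were seen. Probe set 266385_at had the largest difference between ku80 and wild type, being below 28 in wild type, at 1052.0 with bleomycin, and at 1159.7 and 564.3 on the mutant arrays. It was therefore nearly as bright in treated wild type as in untreated ku80. Probe set 267545_at had the largest difference with the drug in ku80, 17.3-fold lower, and stood at 77.1 and 51.1 on the wild type arrays and at 563.8 and 32.5 on the mutant arrays. Probe set 252265_at was below 28 in wild type, at 36.3 with bleomycin, and at 435.8 and 48.3 on the mutant arrays. Both of the latter stayed near the floor or near untreated wild type everywhere but in untreated ku80. The 1 member at least 2-fold lower with the drug in wild type was 250248_at, at 191.3 and 95.3 on the wild type arrays and at 404.2 and 119.6 on the mutant arrays.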

How the data were processed

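The authors deposited linear intensities, 1 for each of 22810 probe sets on each of 4 arrays; they shared a mean of 100.01 after 2% was trimmed from each end. The summarising software is not given in the sources used here. No further scaling was applied. After 64 control probe sets were set aside, values below 28 were set to 28 and log2 was taken. A probe set above 28 on at least 1 array counted as measured. The platform table paired 13513 probe sets with 1 gene, 503 with several and 8730 with none, and 13436 matched a RefSeq gene table (TAIR10.1), which gave symbols and gene order. The number of arrays limits the precision, and with 1 per group no test was made.

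Members and lists were chosen with earlier results of these data known, and roles were assigned after the values were seen. Named members were the 30 with the widest gap between ku80 and the higher of wild type and ku80 with bleomycin, those on the lists, the 10 highest and 10 lowest in the wild type bleomycin difference, those at a threshold, members of larger families and neighbours. The gene tables held no family descriptions, so families came from textbook knowledge. The selection was tested on simulated data without noise and with all intensities above the floor, so the effects of noise and of the floor were not checked there. Python 3.11.15, numpy 2.4.6, pandas 2.3.3 and matplotlib 3.10.9 were used. Promoter and protein sequences were not used here. Other scalings, floors, thresholds and probe set filters were run as alternatives, of which spike-in scaling was added after seeing the data.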

Additional observations from a re-analysis of the deposited data

Results flagged for a closer look

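At 29 of the 97 members the bleomycin differences of the genotypes had opposite directions: at least 2-fold higher with the drug in wild type and at least 2-fold lower in ku80. These are the same 29 members (29.9%) counted above for wild type alone, where the share of all measured probe sets was 4.78%. The lower value in ku80 was a condition of membership, while the direction in wild type was not itself one. Untreated wild type served both in the choice and in the wild type difference, and a low value there favours membership and raises that difference. The contrast between the genotypes uses every array of the rule. It was not tested, since 1 array per group leaves no spread. The log2 difference with the drug in ku80, less that in wild type, came to -5.85 for AT2G43620, -4.96 for AT4G39675, -4.64 for AT1G26250, -3.96 for AT1G19530, -3.53 for AT4G33720, -3.46 for GH3.3 and -3.24 for AT5G64100. It came to -3.0 for AT2G44370, -2.95 for AT3G13610, -2.94 for AT5G55450, -2.89 for AT5G40590, -2.79 for AT4G08780, -2.73 for AT1G02360 and -2.69 for AT4G01700. For AT3G46280 and AT5G66985 it was -2.64, and for AT1G26390 -2.35. Where untreated wild type was below 28, these values depend on the floor.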

How the results depend on the processing

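Counts are given in 1 order: members, those at least 2-fold higher with bleomycin in wild type, the remaining ones, those with ku80 plus bleomycin at least 2-fold above wild type, and those with ku80 at least 2-fold above wild type plus bleomycin. As deposited they were 97, 29, 68, 19 and 68, with a median wild type difference of 0.46 (log2). Median-ratio scaling and quantile normalization each gave 101 members, which included 97 and 92 of the original ones, and quantile normalization put the median at 0.61. A floor of 14 gave 46 in the second count, 35 in the fourth and a median of 0.66, and a floor of 56 gave 15, 10 and 0.20. The 3-fold threshold gave 29, 10, 19, 6 and 24. Restricting to values above 28 everywhere, which admits fewer probe sets, gave 47, 15, 32, 9 and 29 with a median of 0.59. Spike-in scaling gave 47, 7, 40, 7 and 37 with a median of 0.06; by construction it lowers the other 3 arrays against wild type. Leaving out probe sets of the s_at and x_at types gave 92 members. Of 80 values for single genes, 51 moved by over 1.5-fold under spike-in scaling, 21 with a floor of 14, 31 with a floor of 56 and 0 under the other scalings. The sign changed for 7 under spike-in scaling and for 1 each under the other scalings, all of them wild type differences under 2-fold as deposited, and for none that was at least 2-fold. No replicate could be left out, and no paired analysis was possible because each group had 1 array. The count of promoter motifs was not run.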

Other observations

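The 3' to 5' ratio of the ubiquitin control, a sign of RNA quality, was 1.17 and 1.21 on the wild type arrays without and with the drug and 1.42 and 1.53 on the mutant arrays. The same ratio of the GAPDH control lay between 1.09 and 1.19 on the 4 arrays, and that of the actin control between 1.24 and 1.38.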
